A study of Rattus norvegicus with 8 samples.

Results

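Amino acids enter and leave cells through membrane transporters of the solute carrier (Slc) families, and the 8 genes described here encode the best known of these for arginine, large neutral amino acids, cystine and small neutral amino acids. They were chosen by name, with earlier results of these data known: Slc7a1, Slc7a5, Slc7a11, Slc3a2, Slc38a1, Slc38a2, Slc1a4 and Slc1a5. These were 8 of the 15590 genes in the deposited table of rat Achilles tendon RNA-seq. The table compared tendons of naïve control rats (NC, 4 libraries) with tendons of rats killed as soon as a treadmill run of 1 h had ended (0 h post-run, 0 h p.r., 4 libraries). All animals were wild-type male SD rats aged 8 to 10 weeks, and all tendons came from the right leg. The running rats ran uphill, with a stream of air and weak electric stimulation to keep them moving, whereas the control rats kept to normal cage activity, so running and its prompting cannot be told apart. By the methods of the treadmill experiment the controls were killed together with a later post-run group, so a difference in the time of killing cannot be told apart from the run either. The replicates are numbered in the labels without a statement that each came from a different animal, and the p-values measure the spread between these libraries.

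Cationic amino acids such as arginine and lysine are carried by Slc7a1 (CAT-1). Slc7a5 (LAT1) exchanges leucine and other large neutral amino acids, and Slc7a11 (xCT) takes up cystine in exchange for glutamate. Both are light chains that reach the membrane only as a pair with the heavy chain Slc3a2 (4F2hc, CD98). Slc38a1 (SNAT1) and Slc38a2 (SNAT2) use the sodium gradient to accumulate glutamine, alanine and other small neutral amino acids, which the exchangers then trade for other substrates, and Slc1a4 (ASCT1) and Slc1a5 (ASCT2) exchange alanine, serine, cysteine, threonine and, for Slc1a5, glutamine. Several of these genes are known targets of the transcription factor ATF4, whose translation rises when amino acids are short, and imported leucine and arginine are sensed by the kinase complex mTORC1. Tendon cells use amino acids, glycine and proline above all, to build collagen.

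Levels are given in FPKM (fragments per kilobase of transcript, relative to all mapped fragments), which are per gene length, so that genes can be set side by side. Whole reads recovered from the FPKM steps put the depth at 11350560 to 16484163 reads in the NC and 13157202 to 17897056 reads in the 0 h p.r. libraries. The 13 mitochondrial genes took 31.1% of the FPKM of NC replicate 2 and 16.3% to 21.9% in the other libraries. Tendon marker genes (10 of 10 in the table, Tnmd, Scx and Col1a1 among them) summed to 7561 to 13121 FPKM in NC and 10794 to 22281 FPKM in 0 h p.r. The samples also held RNA of other cell types. Summed skeletal muscle markers (9 of 12 in the table) ran from 1103 FPKM in 0 h p.r. replicate 4 to 35976 FPKM in 0 h p.r. replicate 1, around an NC range of 4757 to 8092 FPKM. Summed adipocyte markers (11 of 12) were 3085 to 6173 FPKM in NC and 1034 to 2254 FPKM in 0 h p.r., without overlap, and 6 of the 11 passed the test as lower. Summed cartilage markers (7 of 8) were 1168 to 1644 FPKM in NC and 1707 to 4498 FPKM in 0 h p.r., also without overlap, though none of the 5 tested passed. Endothelial, macrophage, erythroid, neutrophil and Schwann cell sums overlapped between the groups. The neutrophil sum (4 of 9 in the table) was low, at 1.44 to 4.67 FPKM in NC and 1.51 to 2.24 FPKM in 0 h p.r. Bone sums overlapped only narrowly, at 14.7 to 55.4 FPKM in NC and 53.9 to 187 FPKM in 0 h p.r., and none of the 5 tested bone markers passed. In such bulk tissue, a change in the number of cells of a type and a change in RNA per cell cannot be told apart.

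Transcripts of most of the 8 transporters were more abundant after the run. Slc1a4, Slc7a5, Slc7a1 and Slc38a1 rose by 2.60 to 3.94-fold after the run, Slc38a2 rose by 1.90-fold, the heavy chain Slc3a2 and the low Slc7a11 did not pass the test, and Slc1a5 was lower in all 4 run libraries without passing after adjustment. The groups were compared with limma on log2(FPKM + 0.5) over the 13863 genes that reached an FPKM of 0.5 in 4 or more libraries, two-sided, with Benjamini-Hochberg adjustment. 7 of the 8 transporters entered this fit. Both thresholds were an adjusted p below 0.05 together with a fold of 2 or more, and 4 of the 7 met them, all of them higher. Of all tested genes 1.8% passed as higher and 0.894% as lower. At an adjusted p under 0.05 and any fold, 5 of the 7 were higher against 3.49% of all tested genes. In 5 of the 7, each 0 h p.r. library lay above each NC library, which held for 8.15% of all tested genes. The reverse, seen for Slc1a5, held for 1036 of the 13863 tested genes. The transporters, like the lists below, were chosen with earlier results of these data known, so these shares describe the set and do not test it. The count of 4 fell to 2, Slc7a5 and Slc1a4, when NC replicate 1, NC replicate 2 or 0 h p.r. replicate 1, 2 or 3 was left out and when each library was scaled to an equal FPKM sum, as in TPM. A stricter test against a fold of 1.5 left 0 of them, and 60 of all tested genes.

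**Figure D1:**
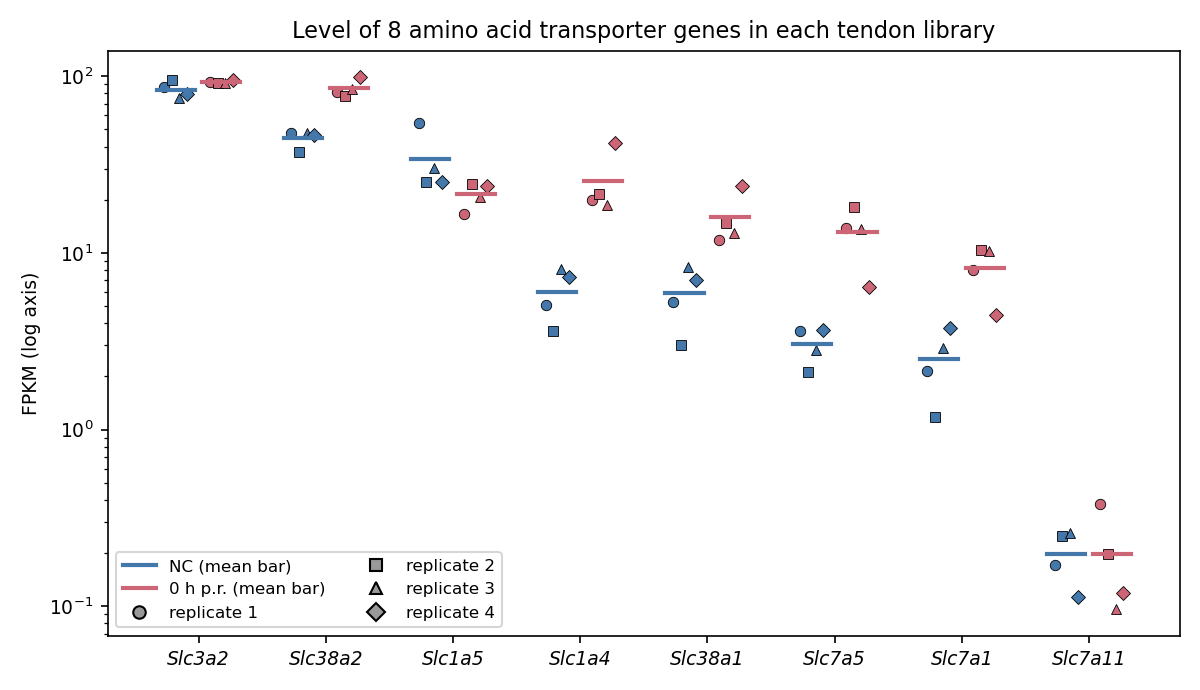
FPKM of the 8 transporter genes (log axis) in each of the 4 NC and 4 0 h p.r. libraries, with symbols for the replicates and a bar at each group mean. Slc38a2, Slc1a4, Slc38a1, Slc7a5 and Slc7a1 have all 4 run libraries above all 4 NC libraries, while Slc3a2 lies between 75.2 and 95.5 FPKM throughout.

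**Figure D2:**
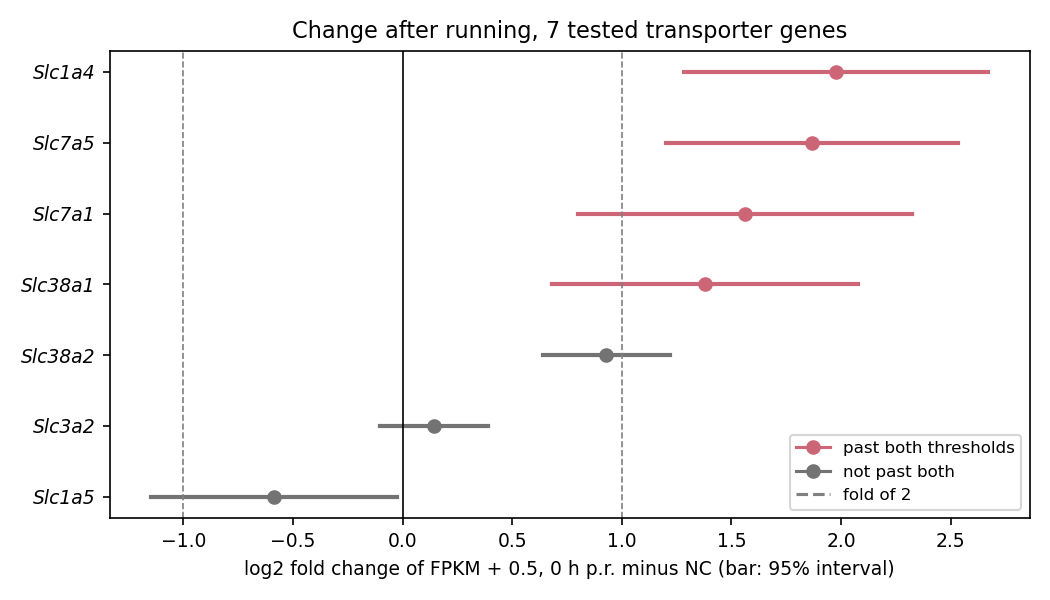
Log2 fold change of FPKM + 0.5 (0 h p.r. minus NC, limma) of the 7 tested transporters, with bars for the 95% interval and dashed lines at a fold of 2. The intervals of Slc1a4, Slc7a5, Slc7a1, Slc38a1 and Slc38a2 lie above 0, that of Slc3a2 spans it, and that of Slc1a5 lies just below it.

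Before the run the levels spanned a wide range. Slc3a2 was the most abundant transporter in NC tendon at 84.1 ± 8.48 FPKM (SD, n = 4), above Slc38a2 at 44.7 ± 5.16 and Slc1a5 at 33.8 ± 14.0 FPKM, whose ranges overlapped. Slc1a4 (6.03 ± 2.08), Slc38a1 (5.91 ± 2.30), Slc7a5 (3.05 ± 0.719) and Slc7a1 (2.50 ± 1.10 FPKM) followed, each with a range that overlapped that of its neighbour in the order, and Slc7a11 was last at 0.199 ± 0.0695 FPKM. After the run Slc3a2 (92.6 ± 2.06) and Slc38a2 (85.5 ± 9.29 FPKM) overlapped at the top. Slc1a4 (25.6 ± 11.1), Slc1a5 (21.5 ± 3.60), Slc38a1 (15.9 ± 5.43), Slc7a5 (13.1 ± 4.86) and Slc7a1 (8.26 ± 2.80 FPKM) came next, with overlapping ranges between neighbours, and Slc7a11 was again last at 0.198 ± 0.129 FPKM. The 4 transporters that passed both thresholds thus started from NC means of 2.50 to 6.03 FPKM, and Slc3a2, Slc38a2 and Slc1a5, with NC means of 33.8 FPKM or more, did not pass both.

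Slc7a5 (ENSRNOG00000018824), the leucine exchanger, measured 3.60, 2.13, 2.84 and 3.65 FPKM in NC replicates 1 to 4 and 13.9, 18.2, 13.7 and 6.45 FPKM in 0 h p.r. replicates 1 to 4. The groups did not overlap, and 0 h p.r. replicate 4 was much the lowest of the run libraries. These values rested on 73 to 221 reads in NC and 403 to 1140 reads in 0 h p.r. The log2 fold change was 1.87 ± 0.30 (SE), or 3.65-fold (95% interval 2.30 to 5.80), with an adjusted p of 0.00998 by limma. With each library left out in turn the adjusted p stayed between 0.00121 and 0.0375.

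Slc7a1 (ENSRNOG00000000924), the arginine and lysine transporter, measured 2.14, 1.18, 2.89 and 3.77 FPKM in NC and 7.95, 10.4, 10.3 and 4.43 FPKM in 0 h p.r. As with Slc7a5, 0 h p.r. replicate 4 was the lowest run library, and it lay close to the highest NC library. This was a log2 fold change of 1.56 ± 0.34 (SE), or 2.95-fold (95% interval 1.74 to 4.9999), with an adjusted p of 0.0329 by limma. This call was lost in 6 of 8 fits with a library left out (NC replicate 1, 2 or 3, or 0 h p.r. replicate 1, 2 or 3), where the adjusted p reached 0.105, while the log2 fold change ranged from 1.31 to 1.82. It was also lost on scaling to an equal FPKM sum (adjusted p = 0.117).

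Slc1a4 (ENSRNOG00000005248), the alanine, serine, cysteine and threonine exchanger, measured 5.06, 3.60, 8.13 and 7.33 FPKM in NC and 19.998, 21.5, 18.7 and 42.1 FPKM in 0 h p.r., so that the lowest run library was above the highest NC library by more than the whole NC range. Here 0 h p.r. replicate 4 was far above the other run libraries. Its log2 fold change was 1.98 ± 0.31 (SE), or 3.94-fold (95% interval 2.43 to 6.37), with an adjusted p of 0.00928 by limma. The adjusted p lay between 0.00749 and 0.0359 with a library left out. This fold change was larger than that of Slc7a5 with all libraries, but not without 0 h p.r. replicate 4 (1.71 against 2.16), without NC replicate 1 (1.92 against 1.94) or with array weights (1.70 against 1.95).

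Slc38a1 (ENSRNOG00000005291), a sodium-coupled glutamine and alanine transporter, measured 5.30, 3.01, 8.33 and 7.01 FPKM in NC and 11.9, 14.8, 13.0 and 23.8 FPKM in 0 h p.r. The groups did not overlap, and 0 h p.r. replicate 4 was again the highest. The log2 fold change was 1.38 ± 0.31 (SE), or 2.60-fold (95% interval 1.61 to 4.22), with an adjusted p of 0.0370 by limma. The call was lost in 6 of 8 fits with a library left out (NC replicate 1, 2 or 4, or 0 h p.r. replicate 1, 2 or 3; adjusted p up to 0.104) and on scaling to an equal FPKM sum (adjusted p = 0.172).

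Slc38a2 (ENSRNOG00000006305), the paralog of Slc38a1 and an amino acid transporter known to respond to amino acid supply, measured 47.5, 37.0, 47.8 and 46.4 FPKM in NC and 80.9, 77.3, 85.1 and 98.5 FPKM in 0 h p.r. The groups were well apart and each was tight, with NC replicate 2 the lowest and 0 h p.r. replicate 4 the highest. The change amounted to 0.93 ± 0.13 (SE) on the log2 scale, or 1.90-fold (95% interval 1.56 to 2.33), with an adjusted p of 0.00632 by limma. Slc38a2 had the lowest p of the 7 in this fit and missed the thresholds by its fold alone, but on scaling to an equal FPKM sum its adjusted p was 0.124. In FPKM its mean rose from 44.7 to 85.5, an increase larger than the mean run level of each of the 4 transporters that passed both thresholds.

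**Figure D3:**
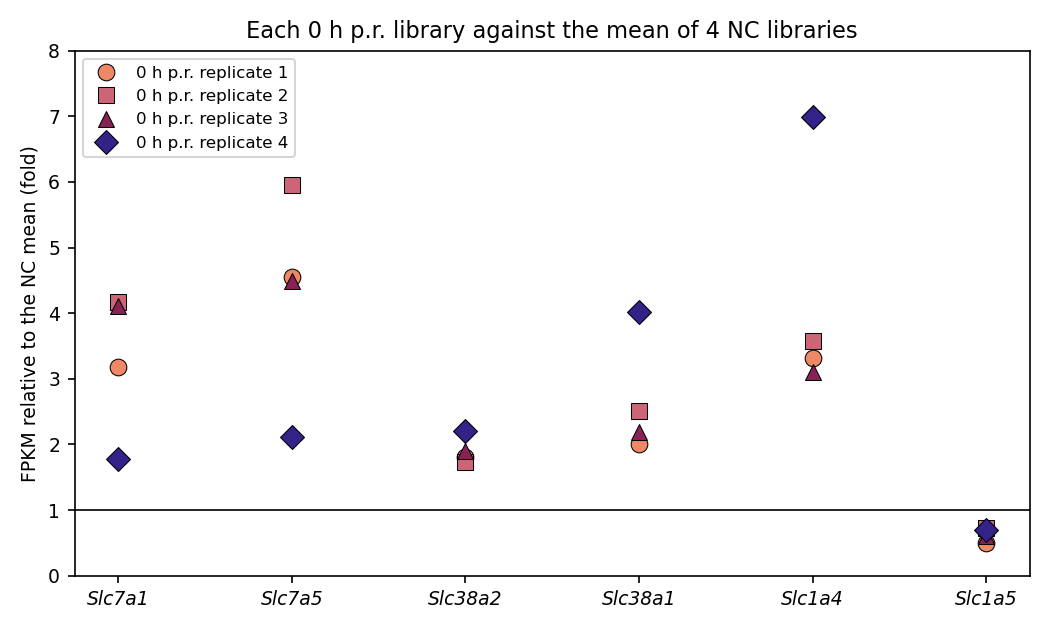
FPKM of 6 transporters in each 0 h p.r. library relative to the mean of the 4 NC libraries (line at 1), by replicate. Replicate 4 is the lowest run library for Slc7a1 (1.77-fold) and Slc7a5 (2.11-fold) and the highest for Slc38a2 (2.20-fold), Slc38a1 (4.03-fold) and Slc1a4 (6.99-fold).

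The rising transporters did not rank the run libraries alike. Relative to the NC mean, Slc7a1 and Slc7a5 stood at 3.19 to 4.18-fold and 4.48 to 5.95-fold in 0 h p.r. replicates 1 to 3 but at 1.77 and 2.11-fold in replicate 4. Slc1a4 and Slc38a1 stood at 3.10 to 3.57-fold and 2.01 to 2.50-fold in replicates 1 to 3 and at 6.99 and 4.03-fold in replicate 4. That library also had the lowest muscle sum (1103 FPKM) and the highest tendon (22281 FPKM), cartilage (4498 FPKM), bone (187 FPKM, NC 14.7 to 55.4) and macrophage (1136 FPKM, NC 398 to 772) sums of all 8, and the part of cell composition in these differences was not tested. In the NC group, replicate 2 was the lowest for each of these 5 transporters, and it was the library with the highest mitochondrial share.

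Slc1a5 (ENSRNOG00000015948), the glutamine exchanger of the Slc1 family, went the other way. It measured 54.6, 25.2, 30.3 and 25.3 FPKM in NC and 16.7, 24.6, 20.7 and 23.8 FPKM in 0 h p.r. All run libraries lay below all NC libraries, but by little. Such a separation held for 1036 of the 13863 tested genes. NC replicate 1 stood far above the rest. The log2 fold change was -0.58 ± 0.25 (SE; 95% interval -1.15 to -0.02), with a p of 0.0429 by limma that did not pass after adjustment (adjusted p = 0.206), and it was -0.33 without NC replicate 1. The adipocyte sum was also highest in NC replicate 1 (6173 FPKM) and lower in every run library, but NC replicate 2, with the next highest sum (5435 FPKM), had the lowest Slc1a5 of the NC group. The part of adipocyte RNA in the Slc1a5 values was not tested.

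Slc3a2 (ENSRNOG00000018487), the heavy chain, measured 86.8, 94.6, 75.2 and 79.8 FPKM in NC and 92.9, 91.2, 91.1 and 95.5 FPKM in 0 h p.r. The groups overlapped, and the run libraries lay within the NC range or just above it. The log2 fold change was 0.14 ± 0.11 (SE), with an adjusted p of 0.491 by limma and a 95% interval of 0.932 to 1.31-fold, which excludes a fold of 2 in either direction.

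Slc7a11 (ENSRNOG00000010210), the cystine transporter, was close to undetected. It had 27, 22, 34 and 15 reads in NC and 45, 32, 11 and 19 reads in 0 h p.r., or 0.171, 0.250, 0.260 and 0.113 against 0.381, 0.198, 0.0965 and 0.118 FPKM. The groups overlapped, with the highest and the lowest value of all both in the run group. It fell under the filter, and a fit without a filter gave a log2 fold change of -0.01 with an adjusted p of 0.978 by limma. On the log2(FPKM + 0.5) scale, which compresses such low levels, the interval was 0.779 to 1.26-fold.

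The light chain Slc7a5 and its heavy chain Slc3a2 were then compared with each other, as were 3 other pairs of members, by an exact permutation test, two-sided, in which 70 ways to split the libraries make 0.0286 the smallest p. Slc3a2 exceeded Slc7a5 by 21.8 to 44.4-fold in NC and by 5.02 to 14.8-fold in 0 h p.r. The log2 ratio of Slc7a5 to Slc3a2 was 1.72 higher after the run, without overlap (exact p = 0.0286; 0.0571 after adjustment over the 4 pairs). With any 1 NC library left out, the exact permutation p was 0.0571. The ratio of Slc7a11 to Slc3a2 differed by -0.16 (exact p = 0.4, adjusted 0.4).

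The paralogs of the Slc1 family came closer in level. Slc1a5 exceeded Slc1a4 by 10.8, 7.01, 3.72 and 3.46-fold in NC replicates 1 to 4, while the same ratio was 0.835, 1.14, 1.11 and 0.565 in the run libraries. All 4 run ratios were below all 4 NC ratios, and the levels in the run group lay near each other. The log2 ratio was 2.38 ± 0.745 (SD, n = 4) in NC and -0.18 ± 0.464 in 0 h p.r., a difference of -2.56 (exact permutation p = 0.0286, the smallest possible; 0.0571 after adjustment over the 4 pairs). In the Slc38 family both paralogs rose, and the log2 ratio of Slc38a2 to Slc38a1 moved by -0.45, with overlapping groups (exact p = 0.171, adjusted 0.229).

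The heavy chain Slc3a2 has other partners, and their levels were set beside Slc7a5 as a description. The summed FPKM of 6 light chains (Slc7a5, Slc7a6, Slc7a7, Slc7a8, Slc7a10 and Slc7a11) averaged 45.8 ± 16.0 in the NC group and 40.7 ± 5.01 in the run group, with overlapping ranges. Within this sum Slc7a5 made up 5.17%, 6.18%, 7.46% and 8.84% in NC and 38.9%, 40.4%, 37.1% and 14.4% in the run libraries. It went from one of the lesser light chains to the most abundant in 0 h p.r. replicates 1 to 3, but not in replicate 4, where Slc7a6 and Slc7a10 each had about 28% (28.2% and 28.0%). Slc7a10 (Asc-1), which carries small neutral amino acids and is found in fat, made up 25.3% to 49.1% in NC and 9.19% to 28.0% in the run libraries. The Slc3a2 level was 1.25 to 2.74 times the light chain sum in NC and 2.03 to 2.60 times in 0 h p.r.

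**Figure D4:**
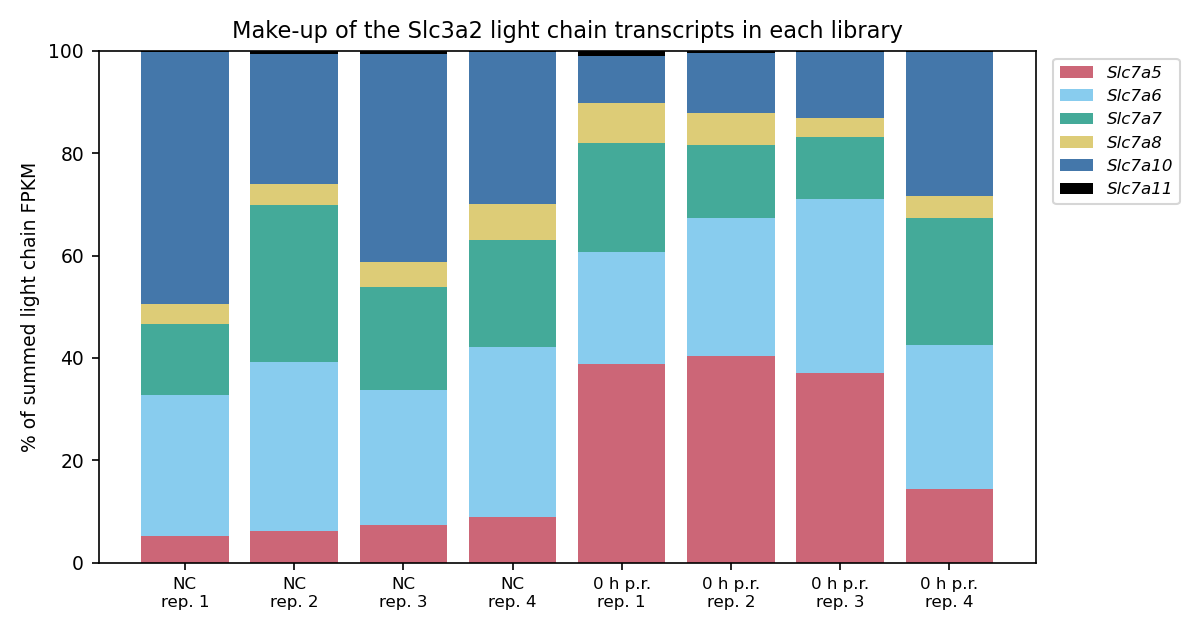
Share of each of 6 light chain genes in their summed FPKM, as stacked bars for each of the 8 libraries. The Slc7a5 share is 5.17% to 8.84% in NC and 14.4% to 40.4% in 0 h p.r., and the Slc7a10 share is lowest in 0 h p.r. replicates 1 to 3.

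Because several members rose together and ATF4 is known to bind C/EBP-ATF response elements (CARE) at such genes, the RefSeq promoter windows of the members (300 bases, from 250 before to 50 after the start site, build GRCr8) were searched for these letters, a choice made with the values known. Windows matched 7 of the 8 members by symbol, with 2 windows for Slc3a2. The CARE letters TGATGNAA, on either strand, were in the windows of Slc38a1, Slc1a4 and Slc7a1, and in 3.98% of 33469 rat windows of the same length. The 3 windows are printed for the place of these letters in genes that passed both thresholds, with the CARE letters in capitals:
Slc38a1, chr7:129681352-129681651, minus strand: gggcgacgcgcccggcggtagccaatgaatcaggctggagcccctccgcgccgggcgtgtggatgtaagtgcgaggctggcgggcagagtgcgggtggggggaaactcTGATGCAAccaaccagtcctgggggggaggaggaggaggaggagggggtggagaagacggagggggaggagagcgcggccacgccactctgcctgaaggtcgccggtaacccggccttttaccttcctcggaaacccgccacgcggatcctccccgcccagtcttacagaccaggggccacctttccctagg
Slc1a4, chr14:98761513-98761812, minus strand: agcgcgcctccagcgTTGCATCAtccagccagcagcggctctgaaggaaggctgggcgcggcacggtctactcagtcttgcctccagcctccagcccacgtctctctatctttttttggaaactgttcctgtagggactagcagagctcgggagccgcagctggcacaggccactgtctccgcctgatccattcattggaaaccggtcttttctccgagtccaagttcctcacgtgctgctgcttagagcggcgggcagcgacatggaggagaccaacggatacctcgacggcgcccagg
Slc7a1, chr12:11664238-11664537, plus strand: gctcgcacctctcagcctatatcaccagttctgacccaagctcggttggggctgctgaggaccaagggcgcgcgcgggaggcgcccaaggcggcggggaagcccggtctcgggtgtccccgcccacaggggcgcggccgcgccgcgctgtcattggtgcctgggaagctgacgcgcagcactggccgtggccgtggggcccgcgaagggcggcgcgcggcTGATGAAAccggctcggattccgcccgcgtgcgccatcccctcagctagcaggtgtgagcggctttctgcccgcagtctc

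In the Slc38a1 window the letters TGATGCAA began 142 bases before the start site, in Slc1a4 TTGCATCA (the other strand) began 235 bases before it, and in Slc7a1 TGATGAAA began 30 bases before it. The same letters were not in the windows of Slc7a5, Slc38a2, Slc7a11 or either window of Slc3a2, which says nothing of sequence outside these windows. 4 other motifs were searched on both strands. The antioxidant response element letters TGACNNNGC were in windows of Slc3a2, Slc38a2 and Slc7a1 (12.1% of all windows), and the E-box CACGTG was in those of Slc7a5 and Slc1a4 (6.42%). The core ACGTG of the hypoxia response element, which the E-box contains on both strands, was in those of Slc7a5, Slc1a4 and Slc3a2 (19.3%). The AP-1 letters TGANTCA were in that of Slc38a1 (7.33%). A match of letters is a description of the sequence only, and no binding was measured.

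None of the other amino acid transporters tested passed as higher. This is near the share over all tested genes, of which 1.8% passed as higher and 0.894% as lower. Among other Slc7 and Slc3 genes (8 of 13 listed were in the table, 7 tested) none passed both thresholds, and the median log2 fold change was -0.31, beside -0.00 over all tested genes. The largest values were -1.36 for Slc7a10 (adjusted p = 0.121 by limma), -0.92 for Slc7a15 (adjusted p = 0.2998) and -0.35 for Slc7a7, a light chain for cationic and neutral amino acids (adjusted p = 0.454). Among other Slc38 and Slc1 genes (12 of 14 in the table, 9 tested) the median was -0.23, and Slc1a3, a glutamate transporter, alone passed, as lower (-1.39, adjusted p = 0.0184). Its call was lost when 0 h p.r. replicate 1, 2 or 3 or NC replicate 1 was left out and on scaling to an equal FPKM sum (adjusted p = 0.0920). In the gene order of the RefSeq annotation Slc38a2 lies between Slc38a1 and Slc38a4. Slc38a4 had a log2 fold change of 0.91 (adjusted p = 0.442) and Slc38a6 one of -0.50 (adjusted p = 0.183). Among the run libraries Slc38a4 had the same order as the muscle sum, with 12.9, 3.21, 4.59 and 0.717 FPKM in replicates 1 to 4. It did not have the order of Slc38a2 or Slc38a1. Of transporters in other families (13 of 19 in the table, 10 tested) none passed, with a median of -0.36 and the largest values for Slc36a2 (-1.07, adjusted p = 0.0573), Slc43a1 (-0.55, adjusted p = 0.190) and the lysosomal cystine exporter Ctns (-0.46, adjusted p = 0.274). Without 0 h p.r. replicate 4, Slc7a10 and Slc36a2 passed as lower (adjusted p = 0.0408 and 0.0420). Slc7a10 and Slc1a3 were highest in NC replicate 1 (34.2 and 22.2 FPKM), as the adipocyte sum was. In NC replicate 2, with the next highest adipocyte sum (5435 FPKM), Slc7a10 was at its lowest of the NC group (8.71 FPKM) and Slc1a3 was at 16.1 FPKM, below NC replicate 3 (17.4 FPKM). The part of adipocyte RNA in these values was not tested.

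Genes that respond to a shortage of amino acids passed in both directions. A list of ATF4 and amino acid response genes other than the transporters (25 of 26 in the table, 24 tested) included the upstream Eif2ak4 and Gcn1. Of the 24, 3 passed as higher and 2 as lower, against 1.8% and 0.894% of all tested genes. The median log2 fold change was 0.17. In 6 of the 24 each run library lay above each NC library, against 8.15% of all tested genes. Atf3, a stress-induced transcription factor, rose by 2.70 (adjusted p = 0.0117 by limma), Ppp1r15a (GADD34), which restores translation after stress, by 1.73 (adjusted p = 0.00205), and the transcription factor Cebpb by 1.57 (adjusted p = 0.000299). These 3 respond to many stimuli besides amino acid shortage. Phgdh and Psat1, the first enzymes of serine synthesis, fell by 1.71 and 1.18 on the log2 scale (adjusted p = 0.0404 and 0.0368), and both calls were lost when any of replicates 1 to 3 of either group was left out and on scaling to an equal FPKM sum (adjusted p = 0.104 and 0.147). In NC replicates 1 to 4 Phgdh measured 37.1, 21.2, 17.0 and 13.3 FPKM and Psat1 8.70, 7.93, 6.82 and 5.30 FPKM, the order of the adipocyte sums (6173, 5435, 3167 and 3085 FPKM). In the run libraries the adipocyte sum was 1034, 1494, 1846 and 2254 FPKM in replicates 1 to 4. Psat1 did not follow this order, and Phgdh followed it but for the close values of replicates 2 and 3. Phgdh measured 3.67, 5.26, 5.02 and 12.6 FPKM there, and Psat1 1.70, 4.04, 2.29 and 3.997 FPKM. Both genes and the adipocyte sum were lower in every run library than in every NC library, and the part of adipocyte RNA was not tested. Atf4 itself, named after its values were seen, measured 153, 211, 153 and 151 FPKM in NC and 296, 277, 269 and 237 FPKM in 0 h p.r. It was higher in all run libraries by a log2 fold change of 0.70 (adjusted p = 0.0338), short of a fold of 2, and this p was not under 0.05 in 6 of 8 fits with a library left out (NC replicate 1, 3 or 4 or 0 h p.r. replicate 1, 2 or 3; up to 0.109).

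**Figure D5:**
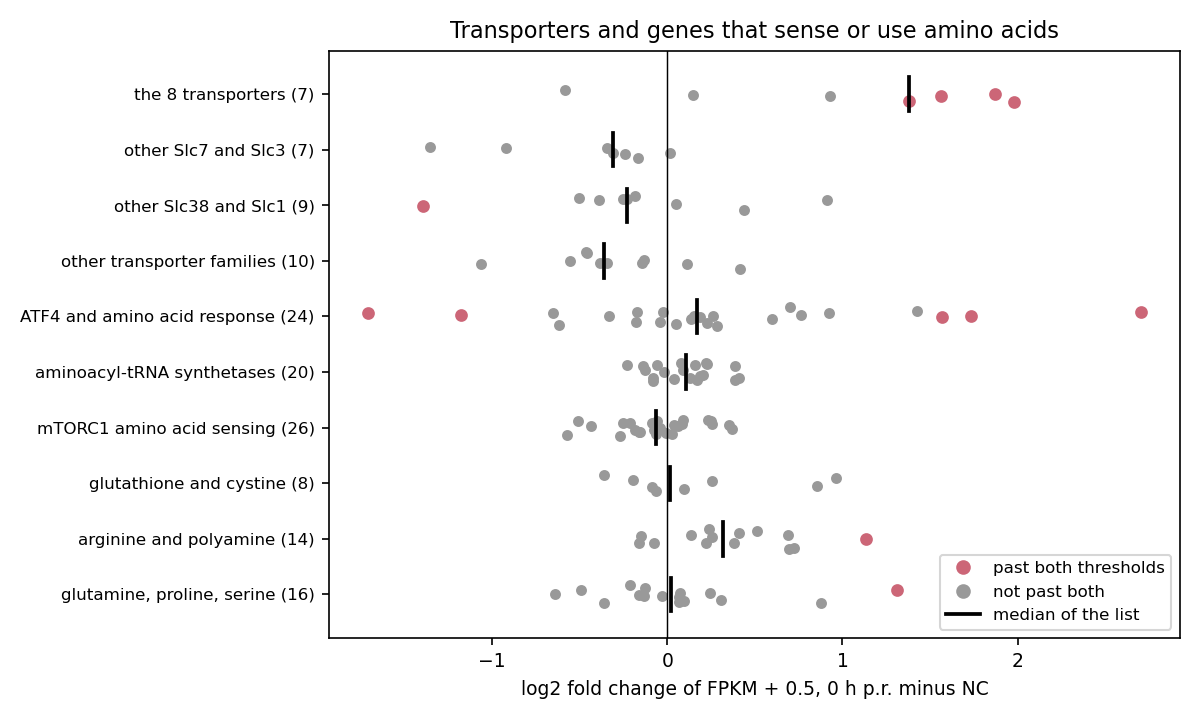
Log2 fold change of FPKM + 0.5 (0 h p.r. minus NC, limma) of each tested gene in the transporter set and in 9 lists of related genes, with the number tested in brackets, red for genes past both thresholds and a black bar at the median. The median of the 7 tested transporters described here is 1.38, and the medians of the lists lie between -0.36 and 0.32. Both the transporters and the lists were chosen with earlier results of these data known.

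Few of the genes that use or sense the transported amino acids passed. Of all tested genes 1.8% passed as higher and 0.894% as lower, so counts of 0 in lists this short are near these shares. None of 20 cytosolic aminoacyl-tRNA synthetases passed both thresholds (median log2 fold change 0.11), and the largest values were 0.41 for Cars, 0.39 for Iars and 0.39 for Tars, with adjusted p of 0.132, 0.247 and 0.144 by limma. None of 26 tested genes of amino acid sensing by mTORC1 passed (median -0.06), the largest being the arginine sensor Castor1 at -0.57 (adjusted p = 0.0892), Mlst8 at -0.51 (adjusted p = 0.0522) and Nprl3 at -0.44 (adjusted p = 0.165). Of 8 tested genes of glutathione synthesis and cystine use none passed (median 0.02). Gclc, the rate-limiting enzyme of glutathione synthesis, had 0.86 at an adjusted p of 0.0232, which was 0.175 on scaling to an equal FPKM sum and up to 0.0839 in the 4 of 8 fits that lost it (without NC replicate 1 or 3 or 0 h p.r. replicate 2 or 3). Txnrd1 had 0.96 (adjusted p = 0.0744; past both thresholds as higher without 0 h p.r. replicate 4, at 0.0175) and Gsr -0.36 (adjusted p = 0.0904).

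In arginine, polyamine and ornithine metabolism (15 of 16 in the table, 14 tested) the median log2 fold change was 0.32, and 6 of the 14 had all run libraries above all NC libraries, against 8.15% of all tested genes. Sat1, which acetylates polyamines for export, passed as higher (1.13, adjusted p = 0.0135 by limma; lost without 0 h p.r. replicate 2). Ass1, which makes arginine from citrulline, and Azin1, which spares ornithine decarboxylase from degradation, were higher by 0.72 and 0.70 at adjusted p of 0.0323 and 0.0267, short of a fold of 2. On scaling to an equal FPKM sum these were 0.163 and 0.1996, and with a library left out they were not under 0.05 in 6 of 8 fits for Ass1 (up to 0.0862; all but those without 0 h p.r. replicate 2 or 4) and in 5 of 8 for Azin1 (up to 0.0925; all but those without NC replicate 2 or 4 or 0 h p.r. replicate 4). In glutamine, proline, serine and glycine metabolism (17 of 17 in the table, 16 tested; median 0.02) Bcat1, which transaminates the leucine carried by Slc7a5, passed as higher (1.31, adjusted p = 0.0366), a call lost when NC replicate 1, 2 or 3 or 0 h p.r. replicate 2 or 3 was left out and on scaling to an equal FPKM sum (adjusted p = 0.166). Gpt, an alanine transaminase, had a log2 fold change of -0.64 (adjusted p = 0.165).

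For each tested member, the protein-coding genes with the closest profile over the 8 libraries were found by the root-mean-square (RMS) difference of centred log2 values among 13054 genes, as a description. Slc7a5 lay closest to Fosl1 (RMS 0.199) and Zfp36 (0.209), genes known to be induced rapidly by many stimuli, and Slc7a1 to Cemip2 (0.189) and Trim16 (0.220). Slc1a4 lay closest to Sdc4 (0.258) and Frzb (0.264), Slc38a1 to Stc2 (0.217) and Cnnm4 (0.242), and Slc38a2 to Snx18 (0.0747) and Pim1 (0.0883). Slc3a2 lay closest to Atp6v0c (0.0388) and Arpc2 (0.0496), and Slc1a5 to Syde2 (0.128) and Abhd15 (0.131). Among the members themselves, Slc7a1 was nearest to Slc7a5 and Slc7a5 to Slc7a1 (0.306), as were Slc38a1 and Slc1a4 to each other (0.321). Slc38a2 was nearest to Slc38a1 (0.399). These differences include 0 h p.r. replicate 4, which divided the members in the same way, so they are not a separate observation.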

How the data were processed

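Polyadenylated RNA of right Achilles tendons was sequenced in 8 stranded libraries, 4 NC and 4 0 h p.r., grouped by their titles. According to the methods, the authors aligned reads to Rnor_6.0 with HISAT2 2.1.0 and counted them with featureCounts 1.6.3. The deposited FPKM values came from these counts and gene lengths. The deposited fold changes and p-values, the authors' own from DESeq2 1.30.1, were not used. Whole reads were recovered from the steps of a gene's FPKM values for 15590 of 15590 genes (100%; tolerance 0.05 reads) and served as depth and for limma voom as an alternative. No libraries agreed within sampling noise (lowest chi-square per gene 29.7 over 12 pairs within groups).

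The design assumed FPKM, so log2(FPKM + 0.5) was fitted with limma 3.58.1 in R 4.3.3 (lmFit, eBayes with trend), without covariates, leaving out 1727 genes under the filter. Scripts were tested on simulated data. Other steps used Python 3.11.15, numpy 2.4.6 and pandas 2.3.3. Fold changes on this scale understate changes of low genes. Alternatives were other pseudocounts, filters, scalings, library weights, a replicate block, protein-coding genes alone, other thresholds, voom, and each library left out. Named were all members, in each list every gene past both thresholds or otherwise the largest changes up to 3, and the 2 nearest profiles. The members and lists were chosen with earlier results of these data known. Promoter windows and gene order came from the RefSeq annotation of GRCr8, another build than that of the alignment. No coordinates are given besides those of the printed promoter windows. The Slc1a5 promoter was not analysed here. 1 gene that the naming rule selects is not reported here.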

Additional observations from a re-analysis of the deposited data

Results flagged for a closer look

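Of 82 groups of 4 libraries examined (members, pairs and list genes that are named), 8 had 1 library far from the other 3 by Dixon's test at the 95% level, where chance gives about 1 in 20. Among the transporters described, Slc38a2 was 37.0 FPKM in NC replicate 2 where the remaining NC values were 46.4 to 47.8, and Slc1a4 was 42.1 FPKM in 0 h p.r. replicate 4, where the remaining run values were 18.7 to 21.5. The log2 ratio of Slc7a11 to Slc3a2 was -6.64 in NC replicate 3 against -7.03 to -6.99, at 15 to 34 reads of Slc7a11. Among other genes, NC replicate 1 stood apart for Slc38a4 (0.841 FPKM against 2.13 to 2.16) and Slc36a2 (4.26 against 2.07 to 2.38). Cars was 11.01 FPKM in NC replicate 3 against 9.48 to 9.67, Iars was 5.60 in 0 h p.r. replicate 4 against 7.50 to 7.60, and Tars was 13.7 in NC replicate 2 against 12.5 to 12.6.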

How the results depend on the processing

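Every tested transporter kept its direction in each of its 21 alternatives, and each of the 4 pairs in its 12. Slc7a11 had only the fit without a filter. Slc7a5 and Slc1a4 stayed past both thresholds except in the test against a fold of 1.5 (log2 fold changes 1.87 and 1.98), in which Slc7a1 (1.56) and Slc38a1 (1.38) were lost too. On scaling to an equal FPKM sum Slc7a1 (1.61) and Slc38a1 (1.40) were lost, and Slc38a2 had an adjusted p of 0.124 by limma. With FPKM as deposited and the adjusted p as the sole threshold, Slc38a2 passed (0.93). With a library left out, Slc7a1 ranged from 1.31 to 1.82 and Slc38a1 from 1.12 to 1.56. The count of transporters past both thresholds was 2 on that scaling, 0 against a fold of 1.5 and 2 to 4 with a library left out. Over all genes 374 became 171, 60, 793 at the adjusted p alone and 195 to 516 with a library left out (195, 201 and 217 without 0 h p.r. replicate 2, 0 h p.r. replicate 3 and NC replicate 1). With a library left out the Slc7a5 to Slc3a2 log2 ratio ranged from 1.53 to 2.03 and the Slc7a11 to Slc3a2 log2 ratio from -0.27 (without 0 h p.r. replicate 1, exact p = 0.0286) to -0.062 (without NC replicate 3). The cause was not tested. Same-numbered libraries did not deviate together (r of -0.141, -0.0708, 0.0717 and 0.00562). For differently numbered libraries r ran from -0.249 to 0.234. This check cannot decide whether same-numbered libraries shared a batch, because such correlations are small in either case. With the number as a replicate block, 212 genes and 2 transporters passed, with Slc7a1 (1.56, adjusted p = 0.106 by limma) and Slc38a1 (1.38, adjusted p = 0.06) lost. Of the other genes past both thresholds, Slc1a3, Phgdh and Psat1 were lost under the block (adjusted p = 0.0628, 0.118 and 0.106) while Stc2 of the ATF4 list passed as higher (0.0449, against 0.0597 without the block), and of those short of a fold of 2, Atf4, Gclc, Ass1 and Azin1 (0.108, 0.0883, 0.104 and 0.110). By the exact sign-flip test of the replicate block, the Slc7a5 to Slc3a2 (1.72) and Slc1a5 to Slc1a4 (-2.56) ratios had p = 0.125, the smallest it allows. Depth limits Slc7a11, with 11 to 45 reads a library.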
